A study of Mus musculus with 13 samples.

Results

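The 10 genes described here are the 4 Notch receptors (Notch1, Notch2, Notch3 and Notch4), 5 of their ligands (Dll1, Dll3, Dll4, Jag1 and Jag2) and Rbpj, out of 21951 protein-coding genes of the GENCODE annotation of mm10. They were taken by name, and all 10 were found in the annotation. For each gene, the called peaks of H3K4me3 and H3K27me3 were collected within 2 kb of any annotated transcription start site (TSS) or in the gene, and the called peaks of OLIG2 in the gene and 5 kb upstream, at each stage of the oligodendrocyte lineage.

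Notch receptors sit in the cell membrane and bind ligands of the Delta and Jagged families on the neighbouring cell. Binding lets proteases release the intracellular part of the receptor, which enters the nucleus and joins RBPJ, a DNA-binding protein, to switch on targets such as the Hes and Hey genes. In the brain, the pathway is known for maintaining neural stem cells and for holding oligodendrocyte precursors back from differentiation, with Jag1 as one of the ligands and Notch1 as one of the receptors involved. H3K4me3 (K4) is found at the start sites of active or poised genes. H3K27me3 (K27) is laid down by Polycomb repressive complex 2 and covers silenced genes, and a place that carries both marks is called bivalent. OLIG2 is a basic helix-loop-helix factor of the oligodendrocyte lineage, and factors of its class bind the E-box, CANNTG.

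The series holds 13 samples. K4 and K27 were mapped by ChIP-Seq in neural stem cells (NSCs), oligodendrocyte precursor cells (OPCs) and newly formed oligodendrocytes (NFOs), the binding of OLIG2 to DNA in the last 2 stages, and the RNA bound by OLIG2 by RIP-Seq with a control. The title of this control calls it input, and the study's methods call it IgG, the name used here. The NSCs were bought as a culture of cortical cells of E14.5 embryos of CD-1 mice, kept in EGF and FGF, while the strain label of all samples is C57BL/6. The OPCs and NFOs were immunopanned from brains of postnatal day 7 C57BL/6 mice of both sexes, the OPCs by PDGFRα and the NFOs by GalC. All samples are labelled untreated, and no label names an engineered allele. Stage thus went together with age, strain, culture and read type (single reads in NSCs, paired reads in OPCs and NFOs), and these cannot be told apart. Each condition had 1 library and the peak lists do not give its read depth, so no difference between stages has a replicate error or a test, and a peak that is not listed in one stage was not called there at that depth.

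The lists differed in size, from 12688 peaks (NFO K27) to 36069 (NSC K27) for the marks, with 7384 OLIG2 peaks in OPCs and 16911 in NFOs. The antibody field of the labels names the other mark than the title in all 6 histone libraries. The titles were followed: between 42.0% and 69.8% of the peaks in the lists titled K4, and between 6.06% and 17.2% of those titled K27, lay within 1 kb of a protein-coding TSS. As a check of the cells, K4 peaks within 2 kb of a TSS were counted at marker genes, and they did not separate the stages. All 6 NSC markers had one in NSCs and also in OPCs, and 3 of 6 in NFOs. Of 5 OPC markers, all had one in OPCs and 4 in each of NSCs and NFOs. Only 1 of 8 NFO markers (Cnp) had one in NFOs, against 3 of 8 in NSCs and 3 of 8 in OPCs. Of the markers of other cells, K4 peaks were found in NFOs at 3 of 5 for neurons, 2 of 5 for endothelial cells, 1 of 4 for astrocytes and 0 of 5 for microglia. The part of other cells in the results below was not tested.

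The sequences below locate the sites on which the results turn. The first lines give the mm10 sequence at OLIG2 peaks on the strand of the gene, with the E-box nearest to the peak's summit in capitals.
Notch1, OPC peak, chr2:26500990-26501019, minus strand: acgccctcattcCAACTGctgaatggctca
Notch2, OPC peak, chr3:98063891-98063920, plus strand: cctgctgctgaaCATTTGgtggggaaagtg
Dll3, OPC peak, chr7:28299097-28299126, minus strand: ggaacctgctagCACGTGtggtcggccgta
Jag1, NFO peak before the TSS, chr2:137116585-137116614, minus strand: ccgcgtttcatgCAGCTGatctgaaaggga
The next line shows the Notch1 site between the summits of the OPC and the NFO peak, which is in capitals and holds no CANNTG.
Notch1, both summits, chr2:26500874-26500903, minus strand: gCCAATTAAGCAGGTCTGTGAGCAGTTTAt
The last lines show the stretch of 30 bases richest in CpG before the RefSeq TSS of the 4 genes that had no K4 peak within 2 kb of a TSS in NFOs, with each CpG in capitals (RefSeq, GRCm38.p6). The RefSeq TSS of Notch4 had no K4 peak within 2 kb at any stage, and its line is given for completeness.
Notch2, chr3:98013442-98013471, plus strand: CGCGgCGgCGaCGggggCGgagcctCGCGg
Notch4, chr17:34564188-34564217, plus strand: CGgccagccaCGcccctctcttactctccc
Dll4, chr2:119325665-119325694, plus strand: CGgCGggggCGgaggccccctcCGgtgggt
Jag2, chr12:112929498-112929527, minus strand: CGgCGgCGgCGgCGgCGgggcCGCGggCGg

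K4 peaks were listed at all 10 genes in NSCs and in OPCs and at 7 of 10 in NFOs. Over all protein-coding genes these shares were 67.0% in NSCs, 62.5% in OPCs and 47.8% in NFOs. Within 2 kb of a TSS the counts were 10, 10 and 6 of 10, against 64.3%, 60.7% and 43.6% of all genes. Of these, 6 genes had a K4 peak at all 3 stages (Notch1, Notch3, Dll1, Dll3, Jag1 and Rbpj), a pattern found at 41.7% of all genes. The other 4, the receptors Notch2 and Notch4 and the ligands Dll4 and Jag2, had one in NSCs and OPCs and none in NFOs, a pattern found at 17.7% of all genes. The Notch4 peaks lay near a TSS of Gpsm3 and not within 2 kb of the RefSeq TSS of Notch4.

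K27 peaks were listed at 2 genes in NSCs (Dll4 and Rbpj), 4 in OPCs (Notch2, Notch3, Dll4 and Rbpj) and 3 in NFOs (Notch2, Dll4 and Rbpj). Over all genes the shares were 33.7% in NSCs, 24.7% in OPCs and 13.2% in NFOs. Within 2 kb of a TSS, the peaks were at Dll4 alone in NSCs (15.1% of all genes had one), at Notch2, Notch3 and Dll4 in OPCs (16.4%) and at Notch2 and Dll4 in NFOs (9.56%). Near a TSS, Dll4 had K27 at all 3 stages, as did 4.49% of all genes, while Notch2 had it at the 2 later stages alone, as did 3.64%. The remaining 7 genes had no K27 peak near a TSS at any stage, as did 74.5% of all genes. With 10 genes, counts of 2, 4 and 3 are near these shares, and nothing about the set is read from them. The methods filter (FDR below 0.05 and a fold enrichment over the control above 3.5) left the counts of genes with a peak within 2 kb of a TSS or in the gene as they were, while the shares over all genes became 65.0%, 62.0% and 41.7% for K4 and 23.2%, 18.7% and 10.2% for K27. The one K27 peak near a TSS in NSCs, at Dll4, did not pass it.

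**Figure D1:**
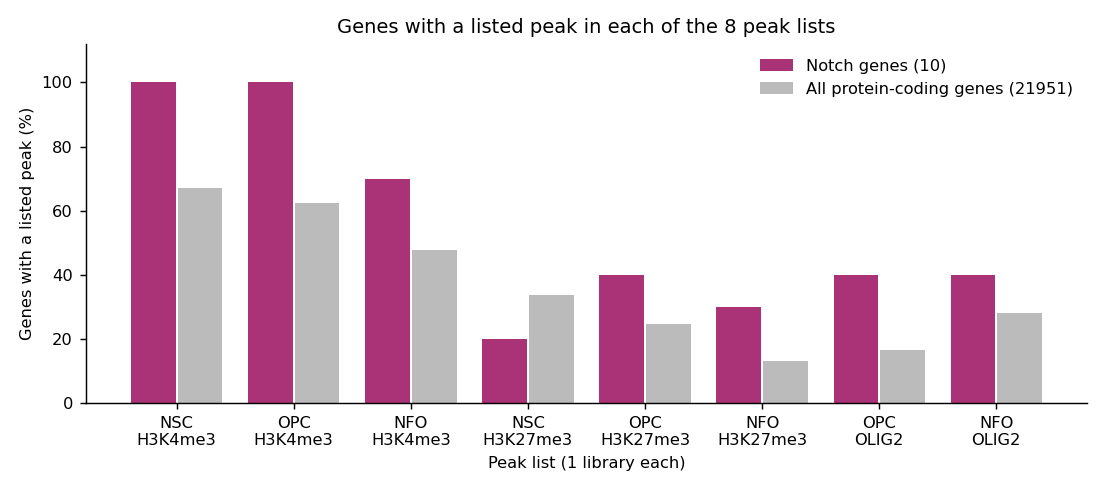
Share of genes (vertical axis, percent) with a listed peak in each of the 8 peak lists (horizontal axis), for the 10 Notch genes (purple bars) and all 21951 protein-coding genes (grey bars), 1 library per list. The Notch genes are above all genes in 7 lists, with K4 at 100% in NSCs and OPCs, and below them in the NSC K27 list. With 10 genes, the K27 counts are near the shares of all genes, and nothing about the set is read from them. Among all genes of at least 50 kb, which include 3 of the 10, the OLIG2 shares were 38.5% in OPCs and 61.3% in NFOs.

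With that filter applied, each gene was given a state from the peaks within 2 kb of its TSSs. All 10 genes were in the K4 only state in NSCs, as were 55.6% of all genes. For Notch4 this state, in NSCs and in OPCs, came only from the peak near a TSS of Gpsm3. In OPCs, 7 stayed K4 only (51.7%), Notch3 had a bivalent place alone (2.62%), and Notch2 and Dll4 had a mixture of K4, K27 or bivalent places (6.32%). In NFOs, 6 were K4 only (35.1% of all genes), Notch2 and Dll4 were K27 only (3.86%) and Notch4 and Jag2 had no listed mark (57.2%). Notch2 and Dll4 were the genes of the 10 that went from K4 only through a mixture to K27 only. The share of all genes on this path was not counted. The K4 only state of Dll4 in NSCs rests on the filter, since its K27 peak near the TSS had a fold enrichment of 3.33.

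Among the receptors, Notch2 stood apart by the extent of K27. Notch2 spans 136835 bp on chromosome 3 (98013527 to 98150361, plus strand). In NSCs there was no K27 peak in the gene or in the 50 kb before it. In OPCs 25 K27 peaks covered 45580 bp, 33.3% of the gene, and in NFOs 26 peaks, one of them upstream of the gene, covered 40979 bp, 29.9%. By gene bases under K27 peaks, Notch2 ranked 15 of 21951 genes in OPCs and 13 in NFOs, where the genes with any covered base had medians of 739 bp and 926 bp. The rank favours long genes, since it counts bases.

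The K27 peaks of Notch2 lay in the first part of the gene. In OPCs they covered 62.2% of the first 60 kb and 10.8% of the rest, and in NFOs 59.8% and 6.64%. Outside the gene, the 50 kb before the start were covered to 2.27% in OPCs and 3.98% in NFOs, and the 50 kb after its end to 1.66% in OPCs and 0.0% in NFOs. The covered domain thus stopped close to the start of the gene on one side and thinned out inside the gene on the other. The widest peaks were of 8768 bp in OPCs (fold enrichment 4.05) and 12852 bp in NFOs (fold enrichment 4.23). The highest fold enrichments in the gene were 9.75 in OPCs and 6.93 in NFOs, at the 97.0 and 97.8 percentiles of their lists. Of the bases under the peaks, 29463 bp were shared by both stages, 64.6% of those in OPCs and 71.5% of those in NFOs.

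At the Notch2 start site the K4 peak went the other way. In NSCs it spanned 2537 bp at a fold enrichment of 9.13, in OPCs 981 bp at 6.17, and none was listed within 2 kb of the start in NFOs. The OPC peak ran from 324 bp before the RefSeq TSS to 656 bp after it. The first K27 peak inside the gene began 821 bp after the TSS, so that both marks lay next to each other without overlap. On the upstream side, the nearest K27 peak of OPCs ended 2457 bp before the TSS (fold enrichment 7.91). The K4 peaks of NFOs at Notch2 were of 278 bp and 200 bp in introns, with fold enrichments of 4.99 and 3.30, and both lay wholly inside K27 peaks. The promoter has a high CpG content, with an observed over expected CpG ratio of 1.04 in the 300 bases around the TSS, against a median of 0.384 over 32851 RefSeq promoters.

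**Figure D2:**
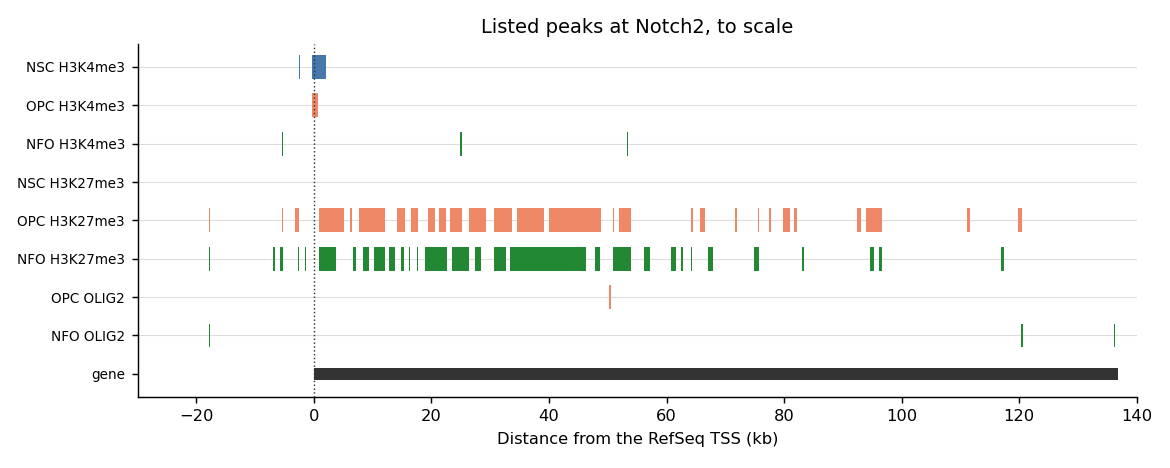
Listed peaks at Notch2 by distance from the RefSeq TSS (horizontal axis, kb), with 1 row per peak list (blue NSCs, orange OPCs, green NFOs) and the gene in black. K27 peaks fill much of the first 60 kb in OPCs and NFOs (62.2% and 59.8% of it) and none is listed in NSCs, while K4 at the start is listed in NSCs and OPCs and not in NFOs.

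Notch1, the receptor studied most in oligodendrocyte precursors, had K4 at every stage and no K27 peak at any. From NSCs through OPCs to NFOs its widest K4 peak measured 4576, 3382 and 849 bp, with highest fold enrichments of 10.9, 6.98 and 5.16. Among the genes with a K4 peak, the widths were at the 95.5, 95.9 and 67.7 percentiles. The peak was continuous over the first kilobases of the RefSeq transcript in NSCs and OPCs. In NFOs it was replaced by 2 separate peaks, from 452 to 1124 bp and from 2149 to 2997 bp after the TSS.

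Notch3 had a K4 peak of 3185 bp over its start in NSCs (fold enrichment 7.10). In OPCs and NFOs the peak near the start was narrow and high, with 283 bp and a fold enrichment of 11.0 in OPCs, and 213 bp and 16.8 in NFOs. The K27 list of OPCs held a peak of 215 bp at the same place with a fold enrichment of 4.49, which shares an edge with the K4 peak and gives the bivalent call. The only other K27 peak of Notch3 in OPCs was 195 bp wide and lay in an intron 35270 bp from the start. Without K27 peaks narrower than 1 kb, Notch3 had no K27 peak at any stage.

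Notch4, which is known from endothelial cells, had a single K4 peak in NSCs (1886 bp, fold enrichment 7.12) and in OPCs (1247 bp, 6.38), and none in NFOs. They began 22195 and 22565 bp after the RefSeq TSS, near the 3′ end of the gene and within 2 kb of a TSS of Gpsm3, so they cannot be given to Notch4 alone. Within 2 kb of the RefSeq TSS of Notch4 no K4 or K27 peak was listed at any stage. Its promoter had the lowest CpG ratio of the 10 genes, 0.214.

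Among the ligands, Dll1 and Jag1 had the most K4. The widest peak at Dll1, a Delta ligand, measured 5752, 4965 and 778 bp at the successive stages, at the 98.3, 99.0 and 63.2 percentiles of genes with a peak. The highest fold enrichments at Dll1 were 9.93, 7.53 and 5.08. In NFOs the place was covered by 3 separate peaks of 449 to 778 bp. No K27 peak and no OLIG2 peak was listed at Dll1.

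Jag1 kept a high K4 peak at its start at all 3 stages. In the order NSCs, OPCs and NFOs the widths were 4509, 3242 and 1043 bp, and the fold enrichments 12.7, 10.3 and 14.3. By fold enrichment, the peaks were at the 92.1, 91.0 and 90.5 percentiles of genes with a K4 peak. The NFO peak ran from 450 bp before to 592 bp after the RefSeq TSS. No K27 peak was listed at Jag1.

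Dll3, a Delta ligand that is known to act inside the cell, had K4 peaks of low fold enrichment. The widest peaks measured 1431 bp, 1423 bp and 297 bp from NSCs to NFOs, and the highest fold enrichments were 3.92, 5.06 and 3.85, at the 5.95, 20.6 and 23.0 percentiles of genes with a peak. Jag2 had a K4 peak of 1108 bp in NSCs (fold enrichment 4.53) and of 964 bp in OPCs (4.48), and none in NFOs. The Jag2 promoter had the highest CpG ratio of the 10 genes, 1.14, with 63 CpGs in 300 bases. The 4 genes without K4 near a TSS in NFOs thus held both the most and the least CpG-rich promoters of the set. The least CpG-rich, that of Notch4, had no K4 peak within 2 kb at any stage, so it does not show a loss of K4.

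Dll4, the ligand best known from growing blood vessels, was the ligand with K27. Its K4 peak measured 2383 bp in NSCs (fold enrichment 5.11) and 187 bp in OPCs (4.10), and was not listed in NFOs. K27 was listed at all 3 stages. In NSCs there were 2 narrow peaks, of 914 bp before the start (fold enrichment 3.33, below the methods filter) and of 359 bp in the gene (5.21), which covered 3.53% of the gene. In OPCs 5 peaks were listed, and the 4 in the gene covered 48.2% of it. The widest of the 5, of 5799 bp, ended 249 bp before the TSS. In NFOs 3 peaks were listed, and the 2 in the gene covered 25.7% of it. The widest of the 3, of 4050 bp, ended 268 bp before the TSS.

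The K27 domain of Dll4 reached beyond the gene on the upstream side. At the successive stages K27 peaks covered 4.57%, 52.6% and 35.2% of the 20 kb before the start, and 6.37%, 5.61% and 0.97% of the 20 kb after the end. In OPCs and NFOs the start itself lay in a gap between the upstream K27 peak and the next one inside the gene. The K4 peak of OPCs lay 433 to 619 bp after the TSS and overlapped the inner K27 peak by 162 bp, which was 86.6% of its width. Of the bases under K27 peaks in NFOs, 96.1% were also under K27 peaks in OPCs.

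**Figure D3:**
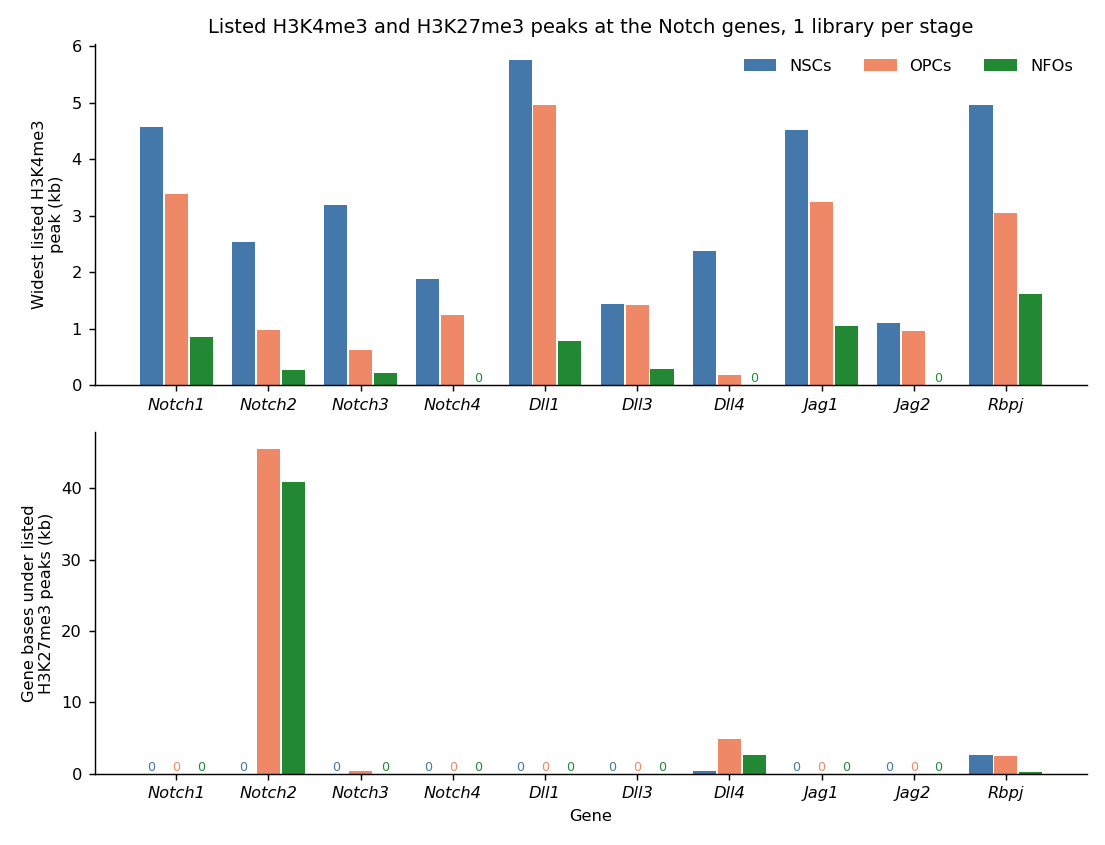
Width of the widest listed K4 peak (upper panel, kb) and gene bases under listed K27 peaks (lower panel, kb) for each of the 10 genes (horizontal axis) in NSCs (blue), OPCs (orange) and NFOs (green), 1 library per stage, with 0 where none is listed. The K4 bars of NFOs are the shortest at every gene, and Notch2 carries 45580 bp under K27 in OPCs and 40979 bp in NFOs.

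The widest K4 peak of each of the 10 genes was widest in NSCs and narrowest or absent in NFOs. The lists as a whole moved too: over all genes with a peak, the median of the widest one was 2141, 1364 and 564 bp at the same stages. Relative to these medians, 7 of the 10 genes were wider in NSCs, 5 of 10 in OPCs and 4 of the 7 with a peak in NFOs. The genes wider than the median at all 3 stages were Notch1, Dll1, Jag1 and Rbpj.

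Rbpj, the DNA-binding factor through which all 4 receptors act, had a K4 peak at its RefSeq start at every stage. Its widths at the successive stages were 4955, 3053 and 1608 bp, at the 96.8, 94.0 and 92.8 percentiles of genes with a K4 peak. In NFOs a second, narrow peak (390 bp) before the start had the higher fold enrichment, 7.82 against 4.86. No K27 peak lay within 2 kb of a TSS of Rbpj.

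The K27 peaks of Rbpj were all distal. GENCODE gives Rbpj 191211 bp, which includes longer transcripts that start far before the RefSeq TSS. All K27 peaks of the 3 stages were in introns, 1 of them beginning 17412 bp after the RefSeq TSS and the others at least 59112 bp before it. A K27 peak with its middle 65383 bp before the TSS in NSCs and 65282 bp in OPCs was 822 bp wide in the first (fold enrichment 3.81) and 912 bp in the second (7.59). Another with its middle 59249 and 59502 bp before the TSS was 274 bp wide in NSCs (3.29) and 748 bp in OPCs (3.53). Neither was listed in NFOs, where 1 K27 peak of 230 bp remained, with a fold enrichment of 3.54. In OPCs and NFOs Rbpj thus had far less K27 than Notch2 or Dll4: it covered 1.33% and 0.12% of the gene. In NSCs K27 covered 2662 bp of Rbpj (1.39%), against 359 bp of Dll4 (3.53%) and no base of Notch2.

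Overlapping K4 and K27 peaks were found at none of the 10 genes in NSCs, at 3 in OPCs (Notch3, Dll4 and Rbpj) and at 2 in NFOs (Notch2 and Rbpj). Over all genes the shares were 14.8%, 6.40% and 3.79%. In each case the K4 peak involved was narrow, between 187 and 513 bp. At Rbpj in OPCs the K4 and the K27 peak had the same first and last base, 121190 to 121702 bp before the RefSeq TSS, and with a fold enrichment above 5 no overlap was left at any gene.

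OLIG2 peaks were listed at 4 genes in OPCs (Notch1, Notch2, Dll3 and Rbpj) and at 4 in NFOs (Notch1, Notch2, Jag1 and Rbpj). Over all genes the shares were 16.5% in OPCs and 28.2% in NFOs. Notch1, Notch2 and Rbpj had a peak at both stages, as did 9.79% of all genes. After the methods filter, which for OLIG2 asks for a fold enrichment above 5, the same genes kept a peak, and the shares over all genes were 14.9% and 25.0%. Notch1, Notch2 and Rbpj are the genes of the set of at least 50 kb. Among all 5007 genes of that length the OLIG2 shares were 38.5% in OPCs and 61.3% in NFOs. The K27 shares among them were 70.5%, 44.3% and 25.0% from NSCs to NFOs, and of the 3 genes 1, 2 and 2 had a K27 peak.

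The OLIG2 peak at Notch1 was the highest of the set and the one shared by both stages. It was listed at chr2:26500787-26501016 in OPCs with a fold enrichment of 24.9 and at chr2:26500757-26500992 in NFOs with 22.0, at the 97.5 and 98.2 percentiles of their lists. The peaks overlapped by 206 bp and their summits were 27 bp apart, at 2920 and 2947 bp after the RefSeq TSS. The place lies in intron 2 of the RefSeq transcript and in an exon of a GENCODE transcript with no coding sequence there. It was on a K4 peak at all 3 stages, and in NFOs it was on the second of the 2 separate K4 peaks. The OPC peak held 1 E-box, CAACTG on the strand of the gene, 102 bp from the summit, and the NFO peak held none. Of the 4 OPC peaks at the 10 genes, this 1 overlapped an NFO peak, against 14.3% of all OPC peaks.

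At Jag1 OLIG2 was listed in NFOs only. One peak (chr2:137116568-137116803, fold enrichment 11.1) had its summit 166 bp before the RefSeq TSS, on the K4 peak of all 3 stages. It held the E-box CAGCTG, 86 bp from the summit, a sequence found in 10.1% of NFO peaks. The other peak had its summit in the 3′ UTR (fold enrichment 9.40) with an E-box 70 bp away, CAGGTG on the strand of the gene. Whether OPCs lack OLIG2 at these places cannot be said from a list of called peaks. The OPC list is the shorter of both.

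**Figure D4:**
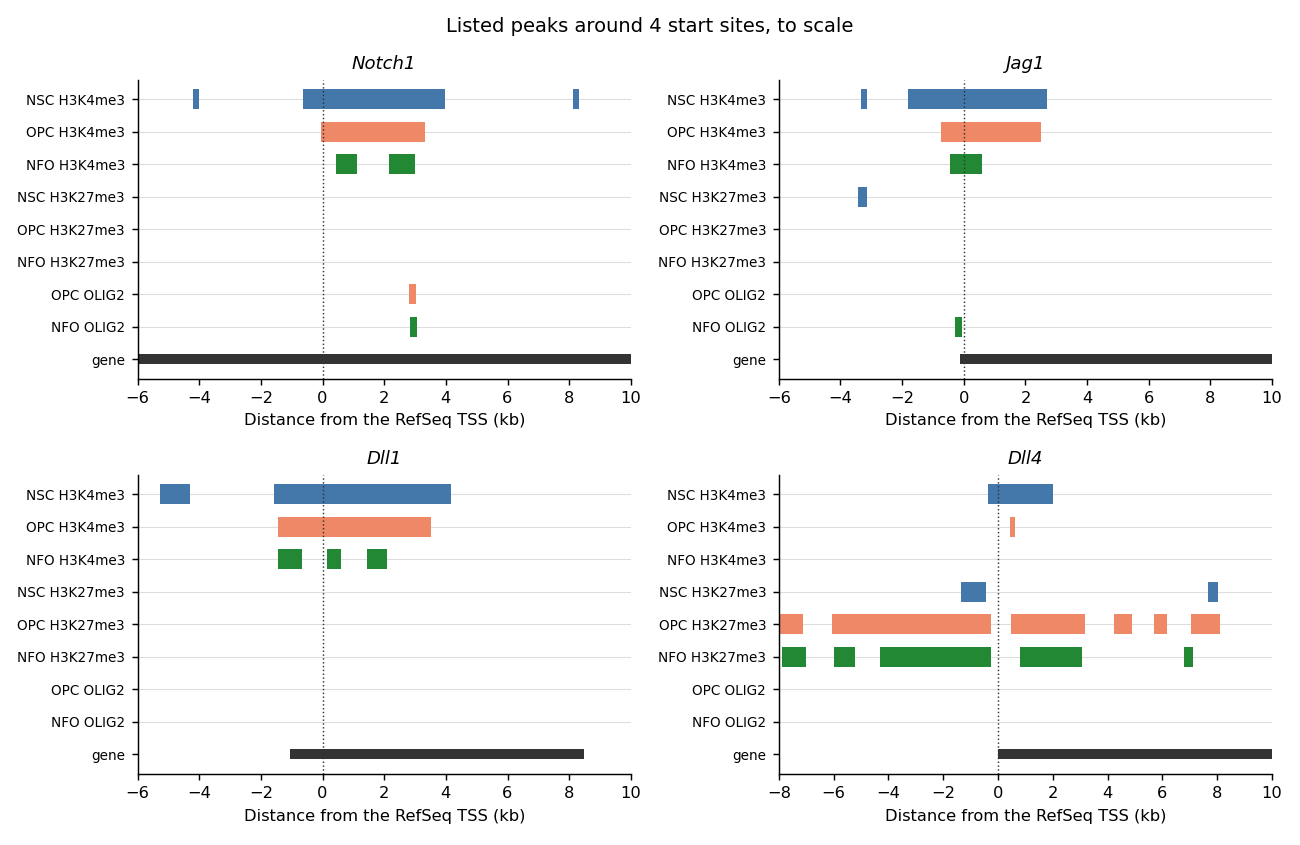
Listed peaks around the RefSeq TSS (horizontal axes, distance in kb) of Notch1, Jag1, Dll1 and Dll4, with 1 row per peak list (blue NSCs, orange OPCs, green NFOs) and the gene in black. OLIG2 peaks lie on K4 peaks at Notch1 (summits 2920 and 2947 bp after the TSS) and Jag1 (166 bp before it), and Dll4 alone of the 4 has K27 peaks at its start.

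The OLIG2 peaks of Notch2 did not coincide between the stages. In OPCs the peak was in intron 2, 50381 bp after the TSS (fold enrichment 6.23, the 26.9 percentile of the list), with the E-box CATTTG 14 bp from the summit, in a gap between K27 peaks. In NFOs one peak was in the 3′ UTR of the last exon (fold enrichment 10.1), and the other in intron 23 had a fold enrichment of 4.21 and an FDR of 0.051, which fails the methods filter. At Rbpj, the OPC peak lay 59196 bp before the RefSeq TSS, at the 78.6 percentile of the list by fold enrichment, and the NFO peak 81252 bp before it, at the 17.9 percentile. The OPC peak of Rbpj was on the K27 peaks that NSCs and OPCs have there, the only one of the 4 OPC peaks on K27 of its stage, against 10.5% of all OPC peaks. At Dll3, the OPC peak was in coding exon 4 (fold enrichment 9.29) and held 2 E-boxes, CACGTG and CATGTG as read on the plus strand.

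In all, 3 of the 4 OPC peaks and 2 of the 6 NFO peaks at the 10 genes held a CANNTG, which reads the same on both strands as a pattern. Over the whole lists 70.4% of OPC peaks and 69.3% of NFO peaks held one. A K4 peak of the same stage lay under 1 of the 4 OPC peaks and 2 of the 6 NFO peaks, against 12.6% and 8.23% of all peaks. The other 7 OLIG2 peaks lay on no K4 peak of any stage.

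No RNA of the 10 genes was in the RIP-Seq lists. None of their 63 annotated transcripts had a called site in the OLIG2 or the IgG list, which name 1961 and 1971 transcripts. The lists thus name fewer transcripts than there are protein-coding genes (21951). The absence of the 63 is therefore not read as a result about these genes. The lists hold called sites with at least 4 tags, so a transcript that is absent was not called, and no limit on its binding follows. The labels give the cells of both RIP libraries as NFOs and the study's methods as NSCs.

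The rest of the pathway was read from a list of 43 genes. K4 peaks were listed at 41 of 43 in NSCs and in OPCs and at 30 of 43 in NFOs, K27 peaks at 18, 8 and 5, and OLIG2 peaks at 14 in OPCs and 19 in NFOs. The shares over all genes were those given above: 67.0%, 62.5% and 47.8% for K4, 33.7%, 24.7% and 13.2% for K27, and 16.5% and 28.2% for OLIG2. By role, K27 in NSCs was listed at 6 of 9 nuclear cofactors, 4 of 11 genes of trafficking and ubiquitin ligases, 3 of 8 of receptor processing, 3 of 3 Delta-like ligands outside the main families, 1 of 5 of receptor glycosylation and 1 of 7 targets. In NFOs it was listed at 1, 1, 0, 2, 0 and 1 of them. These peaks were counted anywhere in the gene, and among all genes of at least 50 kb the K27 share in NSCs was 70.5%. Of the 6 cofactors with K27 in NSCs, Maml3, Spen, Kat2b and Ep300 are that long.

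K27 within 2 kb of a TSS at all 3 stages was found at Hey2, Dlk1 and Dlk2. Hey2, a transcriptional repressor and Notch target, had a widest K27 peak of 327, 5028 and 3510 bp from NSCs to NFOs, beside K4 peaks with fold enrichments of 11.0, 11.5 and 14.9. The order of these widths was that of Dll4. Dlk1, a Delta-like protein that lacks the usual receptor-binding domain, had K27 peaks with highest fold enrichments of 7.35, 12.7 and 6.67. Dlk2, its close relative, matched Dll4 in which of the 8 lists held a peak.

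OLIG2 peaks at both stages were listed at 10 of the 43 (9.79% of all genes), among them Psen2, a catalytic subunit of gamma-secretase; Mib1 and Dtx4, ubiquitin ligases; Maml3, Kat2b and Ep300, coactivators; Spen, a corepressor; and the noncanonical ligands Dlk1 and Dner. All 5 nuclear cofactors that had an OLIG2 peak in OPCs also had one in NFOs. The highest fold enrichments at Kat2b were 18.5 in OPCs and 13.4 in NFOs. None of the 7 targets (Hes1, Hes5, Hes6, Hey1, Hey2, Heyl and Nrarp) had an OLIG2 peak in NFOs, and Hes1 alone had one in OPCs, where the shares over all genes, 28.2% and 16.5%, would give few among 7 genes.

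By which of the 8 lists held a peak, Mib1 and Dtx4 were like Notch1. Ncstn, Pofut1, Mib2, Dtx2, Hes5, Hey1 and Nrarp were like Dll1, and Hes1 was like Dll3. Neurl1a, Maml1 and Maml2 were like Jag1, and Maml3 and Dlk1 like Rbpj. Aph1a, Lfng, Rfng, Numbl and Hes6 were like Notch4 and Jag2. None of the 43 had the pattern of Notch2 or Notch3.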

How the data were processed

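The peak lists and RIP-Seq lists deposited for 10 of the 13 samples were used, and the 3 input libraries were not analysed here. The authors mapped reads to mm10 with Bowtie2, called broad K4 and K27 peaks with MACS2 and OLIG2 peaks with SPP. The deposited lists give each peak's fold enrichment over the control (a ratio) and its −log10 p-value or FDR, both from the authors' peak caller. RIP-Seq sites were called by the authors with ASPeak, with a deposited tag count per site, an RPKM of the transcript and a p-value. Versions of these tools are not given in the sources used here. The lists go below the filters in the methods (FDR below 0.05, fold enrichment above 3.5 for the marks and above 5 for OLIG2), so all listed peaks were counted and the filter was applied for states and as an alternative. Peaks were assigned with GENCODE release M21, any overlap of 1 bp counting, and distances are from the first curated RefSeq TSS. Sequences came from RefSeq GRCm38.p6, and all 10 genes had a promoter entry. Named genes were all 10 members and, of 43 pathway genes, those with K27 near a TSS at all stages, with OLIG2 at both stages, or with a member's pattern in all 8 lists, and a few of these are not reported here. Members and lists were chosen with earlier results of these data known. Samples were grouped by the title. With 1 library per condition no test was made and no interval can be given, and read depth is unknown. Assignment was run on simulated peaks at genes set apart from the gene before them, and recovered 1968 of 1968 genes. This checks the code and not the assignment where genes lie close together. Python 3.11.15, pandas 2.3.3, NumPy 2.4.6 and pysam 0.24.0 were used. Alternatives were other fold enrichment limits, TSS distances, widths, overlaps and upstream distances.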

Additional observations from a re-analysis of the deposited data

How the results depend on the processing

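No paired analysis was possible because each condition has 1 library. Of 79 alternative values for 13 counts, 58 stayed within 1.5 times the main count. They include all those for K4 in NSCs and OPCs (7 to 10 genes). The values for overlapping marks in NSCs and for RIP sites (0 genes each) are also among the 58. These zeros say nothing about stability, since no RIP site was listed for the 10 genes and stricter limits cannot lower a count of 0. The methods filters changed none of the counts by more than 1.5 times. The number of genes with K27 in NSCs fell from 2 to 1 with a fold enrichment above 5, within 2 kb or 1 kb of any TSS, with 1 TSS per gene or within 2 kb of a RefSeq TSS (an alternative chosen after seeing the data), where Dll4 was left, and also to 1 with K27 peaks of at least 1 kb, where Rbpj was left. With K27 peaks of at least 1 kb, K27 in OPCs fell from 4 genes to 2 (Notch2 and Dll4), and overlapping marks from 3 to 1 in OPCs and from 2 to 1 in NFOs. With a fold enrichment above 5, K27 in NFOs fell from 3 genes to 1 (Notch2) and overlapping marks to 0 in OPCs and NFOs. Overlapping marks in NFOs were also at 0 under each of the 4 limits to the neighbourhood of a TSS. K4 in NFOs fell from 7 genes to 4 with 1 TSS per gene and no peaks elsewhere in the gene, which left out Notch1, Notch2 and Rbpj; within 2 kb of any TSS it was 6, without Notch2, whose peaks are intronic. OLIG2 in OPCs fell from 4 genes to 2 with a fold enrichment above 10 (Notch1 and Rbpj) and to 0 in the 5 kb upstream alone, where NFOs fell from 4 to 1 (Jag1) and the shared OPC peaks from 1 to 0. The depth of the libraries is unknown, and a gene without a listed peak may carry the mark below the calling limit.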

Other observations

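Several narrow places were listed for more than one target. Around Rbpj, a K27 peak of OPCs and K4 peaks of OPCs and NFOs began on the same base 121702 bp before the RefSeq TSS, and another place 70756 bp before it began on the same base in the K27 lists of OPCs and NFOs and the K4 list of NFOs, with fold enrichments of 4.58, 3.54 and 4.59. The Notch3 place 279 or 280 bp after the TSS was listed for K4 and K27 in OPCs and for K4 in NFOs.

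Upstream of Notch2, outside the windows used for the marks, a place of about 200 bp was listed for K27 in OPCs and NFOs and for OLIG2 in NFOs. It began 17893 bp before the TSS in both K27 lists, with fold enrichments of 6.67 and 3.52, and the OLIG2 peak began 17935 bp before it with 6.79. A place 3139 to 3427 bp before the Jag1 TSS was listed in NSCs for K27 (fold enrichment 3.44) and for K4 (4.38).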
